A study of Rattus norvegicus with 8 samples.

Results

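Catalogued long non-coding RNAs (lncRNAs) whose locus overlaps the locus of an annotated gene were described in the rat thoracic aorta, with the change of each lncRNA set beside that of the gene it overlaps. Total RNA was sequenced from 4 control Wistar rats and 4 GK rats, an inbred line derived from Wistar that develops diabetes without treatment and whose libraries carry a group label of diabetic macroangiopathy, a disease of large arteries. All rats were 7 to 8 weeks old, no agent or allele is named for either group, and libraries are numbered 7 to 10 within each group. Every control is a Wistar rat and every diabetic rat a GK rat, so strain and diabetes cannot be told apart. The labels do not say that each library came from a separate animal, so p-values measure the spread between libraries. One source field names GK for all 8 libraries, and the grouping rests on the titles, which the strain labels match.

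The members were the rows of the lncRNA table with an identifier of the NONCODE catalogue (NONRATT) and a locus sharing at least 1 base with the locus of a row of the gene table on the same chromosome. There were 15473 such transcripts of 24300 in the table. The rest were 4630 catalogue transcripts with no overlap, 881 from Ensembl and 3316 assembled in the study. The members overlapped 8936 of 19238 genes in 16893 pairs. In 11778 pairs the lncRNA locus lay wholly inside the gene, in 4038 the loci overlapped in part and in 1077 the gene lay inside the lncRNA locus. A single gene was overlapped by 14471 members and more than 1 gene by the other 1002, at most 21 genes by 1 member. Members are not independent of each other, since 5249 share bases with another member.

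An lncRNA that shares a locus with a gene can be transcribed from the same strand, as a fragment, a retained intron or an alternative end of the gene's own transcript, or from the opposite strand as an antisense RNA. Antisense and promoter-associated lncRNAs are known as regulators in cis, some by recruiting chromatin factors and some by transcriptional interference, whereas sense-overlapping catalogue entries often carry the exon or intron sequence of the gene itself. In the arterial wall, lncRNAs have been studied mainly for the contractile state of smooth muscle and for endothelial function. Neither table gives a strand, so sense and antisense members cannot be told apart here. Whether a read in bases shared by an lncRNA and a gene was counted for both is not known from the labels or the files, and this bears on every comparison of a pair below.

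Sequences of the lncRNAs themselves were not analysed here. Promoters are shown for 4 genes that changed together with a partly overlapping lncRNA whose locus covers the start of the gene, as read with the strand of the RefSeq annotation. They are the promoters of Nabp1, a single-stranded DNA binding protein, of Col5a2, a chain of type V collagen, of Myo18a, an unconventional myosin, and of Srxn1, the sulfiredoxin that repairs oxidised peroxiredoxins. Each runs from 250 bases before to 50 after the gene's start in RefSeq on GRCr8, on the gene's strand. They lie at chr9:57618691-57618990 (Nabp1, plus strand), chr9:55090102-55090401 (Col5a2, minus strand), chr10:63152114-63152413 (Myo18a, plus strand) and chr3:161064562-161064861 (Srxn1, plus strand). Capitals mark the GC box GGGCGG or its reverse complement CCGCCC.
Nabp1 promoter: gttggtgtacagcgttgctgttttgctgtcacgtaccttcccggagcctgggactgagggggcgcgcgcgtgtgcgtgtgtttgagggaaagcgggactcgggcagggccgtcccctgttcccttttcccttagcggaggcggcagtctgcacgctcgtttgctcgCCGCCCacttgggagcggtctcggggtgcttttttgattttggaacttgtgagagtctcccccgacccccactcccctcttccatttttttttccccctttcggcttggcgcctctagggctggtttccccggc
Col5a2 promoter: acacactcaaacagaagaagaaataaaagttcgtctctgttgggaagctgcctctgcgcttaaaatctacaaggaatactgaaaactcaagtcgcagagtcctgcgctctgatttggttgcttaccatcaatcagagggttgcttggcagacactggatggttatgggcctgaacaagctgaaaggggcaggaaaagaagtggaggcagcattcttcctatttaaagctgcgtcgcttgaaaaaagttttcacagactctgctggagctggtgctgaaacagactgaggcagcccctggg
Myo18a promoter: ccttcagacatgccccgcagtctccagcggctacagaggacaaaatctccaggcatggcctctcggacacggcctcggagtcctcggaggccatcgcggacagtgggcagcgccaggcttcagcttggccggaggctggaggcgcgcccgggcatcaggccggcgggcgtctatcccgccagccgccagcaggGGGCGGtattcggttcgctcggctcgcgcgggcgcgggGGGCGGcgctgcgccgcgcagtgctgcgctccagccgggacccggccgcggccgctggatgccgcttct
Srxn1 promoter: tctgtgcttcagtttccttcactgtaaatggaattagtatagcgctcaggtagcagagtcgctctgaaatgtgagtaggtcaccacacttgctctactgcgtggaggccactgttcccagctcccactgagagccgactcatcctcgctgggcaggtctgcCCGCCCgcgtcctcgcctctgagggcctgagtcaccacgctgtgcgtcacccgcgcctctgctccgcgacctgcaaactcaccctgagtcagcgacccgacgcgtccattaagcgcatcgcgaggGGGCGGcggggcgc

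Both strands were searched for the GC box and for 3 other short motifs. The GC box occurred 1 time in the Nabp1 promoter and 2 times each in those of Myo18a and Srxn1, and in 33.1% of all 33469 promoters of the same length. The TATA box TATAAA occurred in 14.2% of all promoters. The CCAAT box, searched by those letters, occurred in 37.5%. The E-box CACGTG occurred in 6.42%. No motif of the 4 was found in the Col5a2 window. The GC content was 61.7% for Nabp1, 73.7% for Myo18a and 62.0% for Srxn1, against a median of 51.7% over all promoters, and 47.7% for Col5a2. A match describes letters in the window and no binding. The values of these 4 pairs are given with the pairs that changed together.

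Gene counts summed to between 11760397 and 16266151 per library and lncRNA counts to between 1185872 and 2031376, of which the members held 34.1% to 39.6%. Levels are in CPM, counts scaled to the library total, computed within the lncRNA table for lncRNAs and within the gene table for genes. The tissue markers were present in every library. The summed level of 12 contractile smooth muscle genes was 6081 to 16007 CPM in controls and 3138 to 8514 CPM in GK, and that of 11 endothelial genes 807 to 1225 CPM and 1355 to 1674 CPM. The endothelial sums were higher in every GK library than in every control. Sums of the other cell types overlapped between the groups, for general adipocyte genes only narrowly. They were 7550.1 to 12543 CPM in controls and 12387 to 29630.2 CPM in GK for 11 general adipocyte genes, and 694 to 3217 CPM and 1753 to 5854 CPM for 9 brown adipocyte genes. Skeletal and cardiac muscle genes summed to 194 to 621 CPM and 111 to 19746 CPM, nerve genes to 122 to 628 CPM and 371 to 1774 CPM, fibroblast genes to 2257 to 6522 CPM and 1263 to 4395 CPM, and macrophage genes to 476 to 1148 CPM and 317 to 549 CPM. Overlap of the sums does not mean equal levels. The median log2 fold change (GK against control) was 0.83 for general adipocyte, 1.25 for brown adipocyte and 1.57 for nerve genes. It was 5.25 for skeletal and cardiac muscle, -0.94 for fibroblast and -0.84 for macrophage genes. No listed marker was at 0 in all libraries, and the markers' part in the results below was not tested. In bulk tissue fewer cells of a type and less RNA per cell cannot be told apart.

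The members were short transcripts with a median length of 648 bases, from 201 to 12402, and 9336 of them (60.3%) were shorter than their locus and thus spliced. Enough counts for the test were present for 6690 members (43.2%), while 8783 were too low and are not described further. In 6919 pairs, with 6580 members and 4523 genes, both the lncRNA and the gene were tested. The lncRNA usually stood below its gene. Per length, as the mean FPKM (fragments per kilobase of transcript, scaled to library size) of the deposited tables, which scale by a different total for lncRNAs and for genes, the median ratio of lncRNA to gene was 0.196 (quartiles 0.0888 and 0.434). The lncRNA exceeded its gene in 521 pairs (7.53%). On raw counts the lncRNA was above its gene in every library in 35 of 4798 pairs with the lncRNA inside the gene, in 99 of 1878 partial pairs and in 91 of 243 pairs with the gene inside the lncRNA.

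The 5 members with the highest mean level lay at Tns1, Timp3, Myh11, C7 and Cnbd2. The NONRATT030152.2 transcript at Tns1, which encodes the focal adhesion protein tensin, had 6367, 11131, 9929 and 11237 CPM in controls 7 to 10 and 6381, 8319.9, 8254 and 39.9 CPM in GK 7 to 10. Its level was within a 2-fold range in 7 of the libraries and far lower in GK 10. The next were NONRATT026609.2 at Timp3, an inhibitor of matrix metalloproteinases, and NONRATT004042.2 at Myh11, the smooth muscle myosin heavy chain. They had 7399 ± 1319 and 5710.1 ± 3062 CPM in controls (SD, n = 4) and 5324 ± 597 and 2608 ± 1333 CPM in GK, and neither passed the test (edgeR adjusted p = 0.25 and 0.276). NONRATT016148.2 at C7, a component of the complement attack complex, had 3190.5 ± 2156 and 1271 ± 1065 CPM (edgeR adjusted p = 0.313). NONRATT018825.2 lay inside Cnbd2 and was far above it per length, at a mean of 73.8 FPKM against 1.06 FPKM for the gene. It had 2296 ± 203 CPM in controls and 2783 ± 241 CPM in GK (edgeR adjusted p = 0.389).

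The first question was which of these lncRNAs differed between GK and control aorta. Of 6690 members tested, 108 changed (1.61%) at an adjusted p under 0.05 in edgeR's quasi-likelihood test, 55 higher (0.822%) and 53 lower (0.792%) in GK. Over all lncRNAs tested the share was 2.74% (320 of 11683), with 1.63% higher and 1.11% lower. It was 3.05% for catalogue transcripts with no overlap, 5.1% for Ensembl and 5.17% for assembled ones, and the difference between these shares was not tested. GK and control values did not overlap in 107 of the 108, the exception being NONRATT005011.2 at Gna13, against 9.51% of all members and 11.7% of all lncRNAs tested. The calls rest on the same values, so this separation is no added support for them. The change was at least 2-fold in 104. At an unadjusted p under 0.05 there were 992 of the 6690 members. About 1 in 20 tests pass that threshold by chance, so this is no count of changed members. The median SE of a member's log2 fold change was 0.36. Each count depends on single libraries, from 24 without GK 7 to 221 without GK 9, and DESeq2 called 369.

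For 4 of the 108 the overlapped gene was too low to test (Ticrr, Oca2, snoR38 and Pdzk1). Each of the 8 libraries was left out in turn to see which calls stayed. Every refit has fewer libraries and so less power. A lost call does not by itself show dependence on the library left out. There were 12 that stayed past the threshold each time, overlapping Rn60_14_0474.1, Retsat, AC115158.1 (NONRATT024289.2), Bre (NONRATT024848.2), Acer3, Cog2, Adprhl1, Slc35b3, AABR07070046.1 (NONRATT027592.2), Inpp5d, Fabp3 and Dazap2. Of the others, 3 were lost without 1 library, namely those at Kcnh1 (without control 10), Cxcl14 (without GK 10) and Foxp4 (without GK 7), 49 were kept in only 1 of the 8 refits, and 3 in none, at Bivm, Cep57 (NONRATT028258.2) and Acly. Of those described below, the lncRNAs at Cep295 (NONRATT028278.2) and AC115158.1 (NONRATT024290.2) were kept in 6 refits, those at Faim3 and Npas2 in 5, at Shisa4 and Smoc1 (NONRATT024458.2) in 4, and at Ticrr, Fam73b, Oca2, Nabp1, Myo18a, Col5a1 and Pfkfb3 (NONRATT012597.2) in 2. Kept in 1 refit were those at Gmpr, Sdhc, Gna13, Col5a2, Col3a1, Srxn1, RT1-CE10, Mrpl48, Smoc1 (NONRATT024457.2) and, at Pfkfb3, NONRATT012596.2 and NONRATT012599.2. The sign of all 108 was the same in every refit.

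Among members that rose, the largest ratio was at Gmpr, which encodes guanosine monophosphate reductase. NONRATT012858.2 (chromosome 17, 19557323 to 19567758 in the coordinates of the files, which come without a named rat build) had 2.67, 7.47, 4.31 and 1.93 CPM in controls 7 to 10 and 467, 124, 7.76 and 59.8 CPM in GK 7 to 10. All GK libraries were above all controls, with GK 9 just above the highest control. The log2 fold change was 5.36 (SE 1.16, edgeR adjusted p = 0.0478). The call was kept only when GK 9 was left out, and was lost without any other library (largest edgeR adjusted p = 0.145). The Gmpr gene rose as well, from 44.7 ± 36.3 to 957 ± 550.2 CPM (SD, n = 4; edgeR log2 fold change 4.42, adjusted p = 0.0159).

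The lncRNA NONRATT008955.2 spans the whole Sdhc gene, which encodes an anchor subunit of succinate dehydrogenase, and extends a few bases past each end. It had 48.1, 6.64, 8.62 and 61.8 CPM in controls and 436, 1105, 178 and 1162 CPM in GK. The groups did not overlap, although both varied widely within themselves. Its log2 fold change was 4.51 (SE 0.90, edgeR adjusted p = 0.0374), while that of Sdhc was 0.84 (SE 0.38, edgeR adjusted p = 0.192). The lncRNA's call was likewise kept only without GK 9 (largest edgeR adjusted p = 0.102). The difference between the 2 changes did not pass its own test (3.84, SE 0.80, limma adjusted p = 0.105).

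At Fabp3, the heart-type fatty acid binding protein, NONRATT022675.2 had 4.28, 3.32, 2.16 and 2.41 CPM in controls and 52.6, 44.9, 13.5 and 85.8 CPM in GK. Every GK library stood above every control, and GK 9 was the lowest of them. The log2 fold change was 3.99 (SE 0.58, edgeR adjusted p = 0.0117). Fabp3 itself had 31.3 ± 33.5 and 232 ± 105 CPM, with controls 7 and 8 well above controls 9 and 10, and did not pass the test (edgeR log2 fold change 2.89, adjusted p = 0.0779). NONRATT012136.2 at Adprhl1, an ADP-ribosylhydrolase-like protein of heart muscle, had 5.35, 4.98, 7.01 and 6.76 CPM in controls and 117, 101, 22.2 and 83.8 CPM in GK. GK 9 was again the lowest of a GK group above all controls. Its log2 fold change was 3.72 (SE 0.50, edgeR adjusted p = 0.00914), and the gene rose by 1.96 (edgeR adjusted p = 0.0306).

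The other large rises were at Ticrr, Kcnh1, AC115158.1 and Fam73b. NONRATT002796.2 at Ticrr, a regulator of the start of DNA replication, went from 0.952 ± 0.692 to 15.4 ± 10.2 CPM (edgeR log2 fold change 4.04, adjusted p = 0.0242), whereas Ticrr itself was too low to test, with at most 0.839 CPM in any library. NONRATT018008.2 at Fam73b, a protein of the outer mitochondrial membrane, went from 1.54 ± 1.85 to 18.3 ± 6.42 CPM (edgeR log2 fold change 3.48, adjusted p = 0.0289), and the gene had a log2 fold change of 0.89 (edgeR adjusted p = 0.203). NONRATT005011.2 at Gna13, a G protein subunit, had 13.5 to 22.4 CPM in controls, 456, 289 and 440.1 CPM in GK 8 to 10 and 13.3 CPM in GK 7. It passed the test (log2 fold change 4.09, SE 0.86, edgeR adjusted p = 0.0439), although GK 7 lay below every control.

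Among members that fell, 2 were near or at 0 in GK. NONRATT026294.2 (chromosome 7, 142238760 to 142243201) overlaps 99.0% of Dazap2, which encodes a small proline-rich protein, and had 41.7, 44.0, 87.3 and 18.3 CPM in controls and no count in any GK library. The control libraries held 331 counts in all, so it was at least 107-fold lower in GK, with a floor of 3 counts over the group (edgeR adjusted p = 0.0141). NONRATT009921.2 (chromosome 14, 47201338 to 47201780) lies in Rn60_14_0474.1, a predicted gene, and had 86.1, 116, 73.9 and 120.2 CPM in controls and 1.21, 0.591, 0 and 0 CPM in GK. That is 687 counts against 3, a level 222 times as high in controls, with 75.6 to 1078 as the exact 95% counting limits (edgeR adjusted p = 0.00175). Its gene fell from 15.3 ± 3.77 to 1.06 ± 0.744 CPM (log2 fold change -3.84, SE 0.48, edgeR adjusted p = 0.00714). Rn60_14_0474.1 thus fell with its lncRNA, while Dazap2 did not pass the test.

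The other 6 of the 8 largest falls, among lncRNAs with a mean count of at least 20 in controls, ran from 2.62 to 3.21 on the log2 scale. Below that count, NONRATT000969.2 at Alg8 fell by 2.79. NONRATT008186.2 at Faim3, an Fc receptor for IgM on lymphocytes, fell from 22.2 ± 14.9 to 2.33 ± 1.01 CPM (edgeR log2 fold change -3.21, adjusted p = 0.0208). NONRATT000757.2 at Oca2, a melanosome transporter, fell from 45.7 ± 21.5 to 5.17 ± 4.58 CPM (edgeR log2 fold change -3.10, adjusted p = 0.0319), while Oca2 itself was too low to test, with at most 0.603 CPM. Neither group overlapped the other at either lncRNA. NONRATT008746.2 at Shisa4, a transmembrane protein, fell from 17.3 ± 8.38 to 2.57 ± 1.47 CPM (edgeR log2 fold change -2.72, adjusted p = 0.0289), and its gene had a log2 fold change of -1.55 (edgeR adjusted p = 0.0684). The falls at Cxcl14, Npas2 and Cep295 are given below with their genes.

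**Figure D1:**
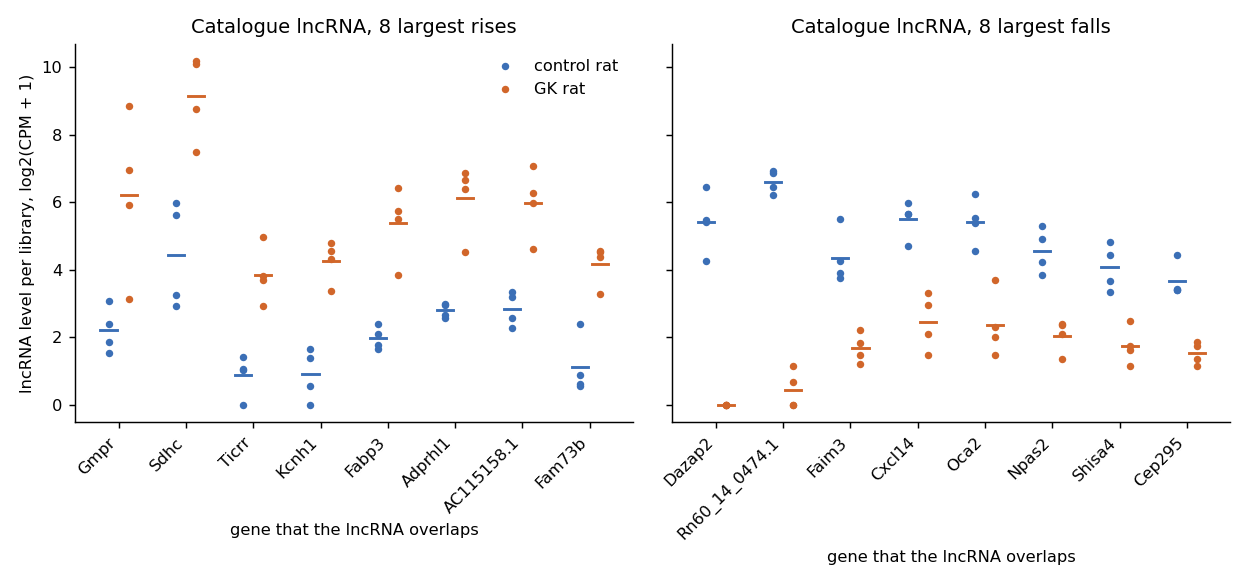
Level of the lncRNAs with the largest rises (left) and falls (right) in GK aorta, as log2(CPM + 1) in each library, with 1 point per library, a bar at the group mean and the overlapped gene under each pair of groups. GK and control points separate at each lncRNA shown, and the Dazap2 lncRNA is at 0 CPM in all 4 GK libraries.

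The second question was whether an lncRNA moved with the gene it overlaps. Of the overlapped genes, 517 of 7706 tested changed (6.71%), near the 7.28% of all 13673 genes tested (3.96% higher and 3.31% lower). In the tested pairs 307 of 4523 genes changed (6.79%, with 3.36% higher and 3.43% lower). A changed member was present in 107 pairs. In 50 of these (46.7%) the gene changed in the same direction, 22 higher and 28 lower, in no pair in the opposite direction, and in 57 the gene was not called. Of those 57, the gene's fold change had the sign of the lncRNA's in 52. The other 5 included pairs at Spi1, Ppp5c, Mrpl48 and Emg1. With other settings a few pairs were called in opposite directions, 7 of them with DESeq2 and 2 without GK 9 (Eif2b1 and Mrpl48). The count of pairs called in the same direction ranged from 5 without control 10 to 144 without GK 9.

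Seen from the genes, 457 pairs held a changed gene, and the lncRNA had the gene's sign in 401 of them (87.7%), against 66.6% in the 6462 pairs with no changed gene. A changed lncRNA was present in 10.9% of the 457, against 1.55% of all 6919 pairs and 0.882% of the 6462 with no changed gene. Across all 6919 pairs the 2 log2 fold changes were correlated with Pearson's r = 0.556 and Spearman's rho = 0.519, as a description, since both come from the same 8 libraries and pairs share genes, lncRNAs and bases. Split by lncRNA level into 4 equal bins, the correlation rose from 0.437 in the lowest bin through 0.507 and 0.545 to 0.682 in the highest. It was 0.576 with the lncRNA inside the gene, 0.518 for partial overlap and 0.545 with the gene inside the lncRNA. In the 225 pairs whose lncRNA had more counts than its gene in every library it was 0.760. Where the gene covered less than 50% of the lncRNA locus (771 pairs) it was 0.466. Deviations of single libraries from their group mean were also correlated between lncRNA and gene, with r from 0.179 (GK 8) to 0.478 (GK 9).

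**Figure D2:**
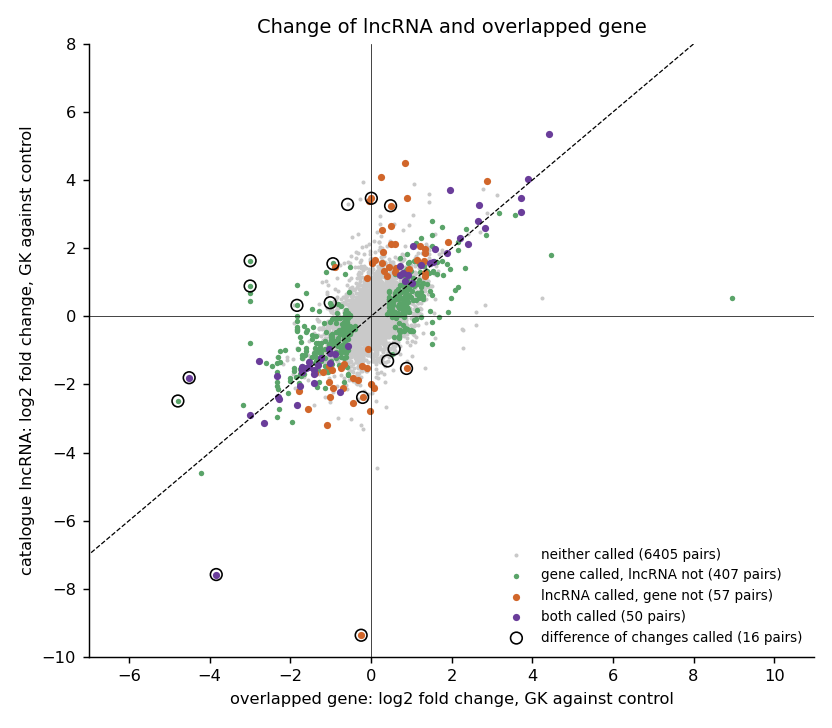
Log2 fold change (GK against control) of the overlapped gene (x axis) and of the catalogue lncRNA (y axis) in 6919 tested pairs, coloured by which of the 2 changed and ringed where the 2 changes differed by limma. All 50 pairs with both changed lie below 0 on both axes or above 0 on both axes, and the fitted value of the Dazap2 lncRNA, at 0 in all GK libraries, depends on the prior count.

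The overlap rule takes pairs from 1 shared base up. At that limit, NONRATT003889.2 shares 1 base with Taf5 and had a log2 fold change of 2.41 (SE 1.27) against -0.31 for the gene, and NONRATT004111.2 shares 1 base with Haghl and had 0.86 against -0.48. Just outside it, with no base between the loci, NONRATT014566.2 beside Lyl1 had -0.16 against -1.02, and NONRATT025610.2 beside Ilvbl had -0.08 against 0.96. No lncRNA of these 4 passed the test, and the signs of lncRNA and gene differed in 3 of them.

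Of the 50 pairs in which both changed, 2 also differed in the test of the difference given below, at Rn60_14_0474.1 and RT1-CE10. At Retsat, the retinol saturase of adipose tissue and liver, NONRATT020568.2 (chromosome 4, 100468023 to 100468845) had 42.8, 44.0, 33.4 and 42.5 CPM in controls and 319.8, 290.3, 159 and 374 CPM in GK. The control libraries were close together and all GK libraries were above them, with GK 9 lowest. The lncRNA rose by 2.81 (SE 0.28, edgeR adjusted p = 0.0032) and the gene by 2.66 (SE 0.40, edgeR adjusted p = 0.0123), from 1038 ± 274 to 6544 ± 2522 CPM. Per length the gene was far above it, at a mean of 1591 FPKM against 20.4 FPKM.

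The locus AC115158.1, which has no gene symbol of known function, held 2 changed lncRNAs. NONRATT024289.2 covers nearly all of it (99.9%) and had 113, 61.4, 73.9 and 48.3 CPM in controls and 763, 801, 443 and 473 CPM in GK. NONRATT024290.2 lies inside and went from 6.50 ± 2.48 to 73.8 ± 45.2 CPM. They rose by 3.06 (edgeR adjusted p = 0.00382) and 3.48 (edgeR adjusted p = 0.0163), and the gene by 3.73 (edgeR adjusted p = 0.0124). In the gene, control 7 (55.9 CPM) stood above the other controls (at most 21.1 CPM), and GK libraries had 153 to 553 CPM.

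At Kcnh1, a voltage-gated potassium channel, both were low. NONRATT008582.2 had 2.14, 0, 1.62 and 0.483 CPM in controls and 26.6, 18.9, 22.8 and 9.31 CPM in GK, and the gene 0.514 to 0.955 CPM and 12.4, 12.1, 11.9 and 5.06 CPM. GK 10 was the lowest GK library in both, and no group overlapped. The log2 fold changes were 4.02 (SE 0.60, edgeR adjusted p = 0.0141) for the lncRNA and 3.90 (SE 0.38, edgeR adjusted p = 0.00279) for the gene.

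Of pairs that fell together, Npas2, a transcription factor of the circadian clock, had 39.2, 77.1, 50.5 and 82.3 CPM in controls and 5.47, 8.79, 10.1 and 6.80 CPM in GK, and NONRATT029333.2 inside it 17.6, 29.0, 13.5 and 38.6 CPM and 4.23, 4.14, 1.55 and 3.32 CPM. In both, controls 8 and 10 were the highest libraries and all GK libraries were below all controls. The falls were -3.0 (edgeR adjusted p = 0.00294) and -2.88 (edgeR adjusted p = 0.0171). At Cxcl14, a chemokine, NONRATT012254.2 had 62.6, 49.8, 25.3 and 49.7 CPM in controls and 1.81, 8.87, 6.73 and 3.32 CPM in GK. Control 9 was the lowest control for both lncRNA and gene. The log2 fold change was -3.15 for the lncRNA (edgeR adjusted p = 0.0153) and -2.64 for Cxcl14 (edgeR adjusted p = 0.00946). At Cep295, a protein that builds centrioles, NONRATT028278.2 fell from 12.4 ± 5.54 to 1.95 ± 0.679 CPM (edgeR log2 fold change -2.62, adjusted p = 0.0171), and the gene from 45.7 ± 6.45 to 12.8 ± 1.34 CPM (-1.84, edgeR adjusted p = 0.002).

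The 4 pairs whose promoters are printed above also moved together. NONRATT029380.2 and Nabp1 had log2 fold changes of 1.59 and 1.55 (edgeR adjusted p = 0.0188 and 0.0138). NONRATT029988.2 and Col5a2 had -1.34 and -1.54 (0.0294 and 0.0263), NONRATT004625.2 and Myo18a 1.52 and 1.25 (0.035 and 0.00735), and NONRATT018730.2 and Srxn1 2.30 and 2.22 (0.0437 and 0.047). The gene levels were 41.1 ± 9.45 and 120.3 ± 32.5 CPM in controls and GK for Nabp1, 287 ± 75.7 and 98.8 ± 39.8 CPM for Col5a2, 84.0 ± 11.2 and 199.7 ± 28.9 CPM for Myo18a and 1.77 ± 1.03 and 8.19 ± 4.08 CPM for Srxn1. For the Srxn1 gene the groups overlapped, with control 8 at 3.14 CPM and GK 9 at 2.71 CPM. None of these 4 pairs differed in the test of the difference (limma adjusted p from 0.717 to 0.977).

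The last question was whether any lncRNA changed differently from its gene, tested with limma on the log2 ratio of lncRNA to gene within each library. This difference compares mean log2 ratios with a prior count of 2. It need not equal the gap between the 2 edgeR fold changes, above all at low counts. At Fabp3 it was -0.22, beside edgeR fold changes of 3.99 for the lncRNA and 2.89 for the gene. Over all 6919 pairs 16 differed (0.231%) at an adjusted p under 0.05, at 15 genes, the lncRNA moving up relative to the gene in 10 (0.145%) and down in 6 (0.0867%). At an unadjusted p under 0.05 there were 854, a threshold that about 1 in 20 tests pass by chance. The median SE of the difference was 0.30, and the middle 80% of all differences lay between -0.66 and 0.63. In 7 of the 16 the lncRNA had changed, in 7 the gene, in 2 of these both, and in 4 neither. Leaving out each library in turn kept 6 of the 16 every time, at AABR07005779.3, Acer3, RT1-CE10, C4a (NONRATT017081.2), Dazap2 and Cep295 (NONRATT027447.2). With a prior count of 0.5 in place of 2, 9 of the 16 remained.

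At Acer3, an alkaline ceramidase, the gene had 38.7 ± 5.15 CPM in controls and 39.0 ± 5.34 CPM in GK (log2 fold change 0.01, SE 0.15). NONRATT002944.2, near the left end of the same locus (chromosome 1, 163163319 to 163169898), had 3.21, 3.32, 2.16 and 2.41 CPM in controls and 28.4, 45.5, 14.0 and 36.6 CPM in GK. The groups were far apart in the lncRNA and overlapped in the gene. The lncRNA rose by 3.47 (SE 0.42, edgeR adjusted p = 0.00637) and the difference was 2.92 (SE 0.29, limma adjusted p = 0.00605). At Bre, a subunit of a DNA repair complex, NONRATT024848.2 had 1.07, 1.66, 1.62 and 1.45 CPM in controls and 15.1, 21.3, 9.31 and 11.3 CPM in GK. It rose by 3.25 (edgeR adjusted p = 0.00541), while Bre had 48.4 ± 5.75 and 67.8 ± 13.3 CPM (edgeR adjusted p = 0.111). The difference was 2.04 (limma adjusted p = 0.0181).

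Lower lncRNAs at genes that were not called were found at Dazap2 and Cog2. Dazap2 had 35.8 ± 4.97 CPM in controls and 30.3 ± 1.33 CPM in GK (edgeR log2 fold change -0.24, adjusted p = 0.252), against the lncRNA with no count in GK, and the difference passed at limma adjusted p = 0.0015. At Cog2, part of a tethering complex of the Golgi, NONRATT014397.2 had 54.0, 44.0, 34.5 and 38.6 CPM in controls and 6.65, 13.0, 5.69 and 7.31 CPM in GK. All GK libraries were below all controls. The lncRNA fell by 2.38 (SE 0.31, edgeR adjusted p = 0.00895), while Cog2 had 73.1 ± 22.6 and 63.3 ± 18.7 CPM (edgeR adjusted p = 0.685), with a difference of -2.07 (limma adjusted p = 0.0365). That difference, unlike the lncRNA's own call, passed in only 1 of 8 refits without a library (largest limma adjusted p = 0.123). NONRATT002977.2 at Mrpl48, of the mitochondrial ribosome, fell from 30.6 ± 11.8 to 10.5 ± 1.68 CPM while its gene stood at 19.4 ± 6.04 and 35.7 ± 9.70 CPM, the gene not passing the test (edgeR adjusted p = 0.0913; limma adjusted p of the difference = 0.048). The difference here passed in 1 of 8 refits without a library (largest limma adjusted p = 0.146) and not with a prior count of 0.5 (limma adjusted p = 0.051).

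In other pairs the gene fell and the lncRNA did not follow to the same extent. RT1-CE10 is a rat MHC class I molecule that presents peptides to T cells. It had 21.4, 20.1, 14.1 and 17.5 CPM in controls and 0.438, 0.755, 0.774 and 1.21 CPM in GK. NONRATT017002.2, which spans it, had 8.02, 10.8, 7.55 and 7.73 CPM and 2.42, 1.18, 2.59 and 3.32 CPM. Both fell without overlap, with log2 fold changes of -4.51 for the gene (edgeR adjusted p = 0.000895) and -1.80 for the lncRNA (edgeR adjusted p = 0.0294), and differed by 2.86 (SE 0.29, limma adjusted p = 0.00605). C4a, a complement component, fell from 144 ± 58.0 to 18.0 ± 8.28 CPM (-3.0, edgeR adjusted p = 0.0138), while NONRATT017081.2 within it had 6.42, 2.49, 4.31 and 4.83 CPM in controls and 11.5, 10.1, 8.79 and 3.99 CPM in GK. The lncRNA groups overlapped and it did not pass the test (0.89, edgeR adjusted p = 0.281), and the difference was 3.79 (SE 0.28, limma adjusted p = 0.0015). The C4a locus as listed (chromosome 20, 4302347 to 4508214) also takes in other genes, and the same lncRNA lies in Notch4, an endothelial Notch receptor, whose rise of 1.07 (edgeR adjusted p = 0.0167) it did not differ from in the test (limma adjusted p = 0.68). RT1 class I and C4 genes have near-identical copies, so the split of reads among them is uncertain.

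At Cep295, NONRATT027447.2 had 5.79 ± 0.732 CPM in controls and 7.21 ± 0.427 CPM in GK (0.32, edgeR adjusted p = 0.586) beside a gene that fell by 1.84, a difference of 2.09 (SE 0.17, limma adjusted p = 0.00249). NONRATT001205.2 spans AABR07005779.3 and parts of Aldoa and Fam57b, and had 59.8 ± 23.7 and 174 ± 55.6 CPM (1.55, edgeR adjusted p = 0.0643). It differed from AABR07005779.3 (-0.94, edgeR adjusted p = 0.197) by 2.42 (limma adjusted p = 0.0043), but not in the test from the glycolytic enzyme Aldoa (0.21, limma adjusted p = 0.735). The other pairs were at Smagp, Scd1, Ankrd33b, Ifi44, Cep57 and, with NONRATT017083.2, C4a, with limma adjusted p from 0.0321 to 0.048, and each was lost when most single libraries were left out. At Scd1, a fatty acid desaturase, the gene had a log2 fold change of -4.79 (edgeR adjusted p = 0.0295) and NONRATT003820.2 -2.49 (edgeR adjusted p = 0.196).

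**Figure D3:**
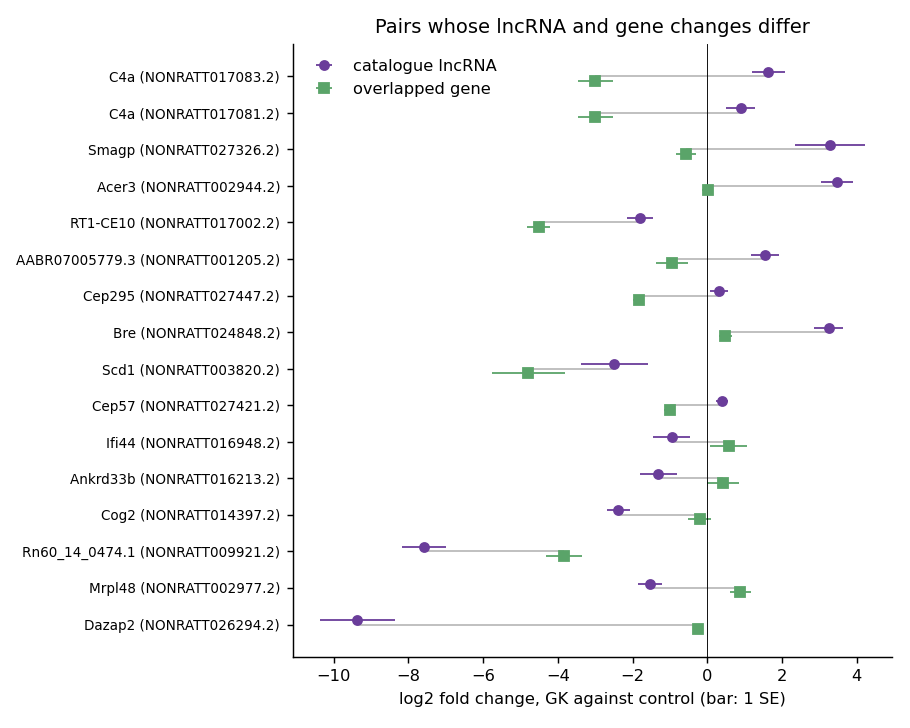
Log2 fold changes (GK against control, bars 1 SE) of lncRNA (circles) and gene (squares) in the 16 pairs whose changes differed by limma. The squares lie near 0 at Acer3, Dazap2 and Cog2 and lie far below the lncRNA at C4a and RT1-CE10, and the fitted value of the Dazap2 lncRNA depends on the prior count because it has no count in GK.

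Several transcripts of the lncRNA table can share a locus, so each changed member was also summed with the lncRNA rows that share bases with it. Of 108 changed members, 65 were alone and 43 shared bases with another row. The ratio of mean levels kept its sign in all 43 when summed, and came at least 2-fold nearer to 1 in 6. At Dazap2, summed with 4 others, the level was 613 ± 143 CPM in controls and 361 ± 120.2 CPM in GK, a log2 ratio of -0.76 against -6.60 for the member alone, both with 0.5 CPM added. At Acer3 the log2 ratio went from 3.27 to 2.16, at Cog2 from -2.32 to -0.95, at Cep295 (NONRATT028278.2) from -2.40 to -1.22, at Cd47 from 2.43 to 1.42 and at Cenpn and Cmc2 from 2.06 to 0.92. At RT1-CE10 it went the other way, from -1.65 to -4.60, beside the gene's log2 fold change of -4.51.

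Genes with several tested members were common, 1544 with more than 1 and 74 with at least 5. At least 2 changed members lay at 5 genes, and no gene had members changed in both directions. At Pfkfb3, an enzyme that activates glycolysis, all 6 tested members had log2 fold changes between 1.18 and 1.85, and 3 passed the test. The most abundant, NONRATT012599.2, had 443, 513, 382 and 425 CPM in controls and 1318, 743, 796 and 1149 CPM in GK, with no overlap. Its log2 fold change was 1.18 (edgeR adjusted p = 0.031), that of NONRATT012596.2 1.85 (0.0224) and that of NONRATT012597.2 1.26 (0.0282). Pfkfb3 itself had 213 ± 48.7 and 541 ± 229 CPM and stood just short of the threshold (1.35, SE 0.36, edgeR adjusted p = 0.0558). At AABR07070046.1, 4 of 6 members fell and the 6 log2 fold changes lay between -1.64 and -1.23, beside -1.72 for the gene (edgeR adjusted p = 0.0118). Each of these 4 shares bases with 2 or 3 other lncRNA rows, so they are not independent of each other. NONRATT027592.2 had 547, 564, 451 and 614 CPM in controls and 137, 190.4, 236 and 211 CPM in GK there, again with no overlap.

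At Smoc1, a matrix-associated calcium binding protein, 2 of 3 members fell, by -1.57 and -1.69, beside -1.41 for the gene (edgeR adjusted p = 0.0163). Each of the 2 shares bases with 2 other lncRNA rows. At Cep295, by contrast, 9 members ranged from -2.62 to 0.93 around a median of -0.30, and 1 passed the test, while the gene fell by 1.84. At C4a the 5 members ranged from -0.79 to 1.63 with none past the test, beside -3.0 for the gene.

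**Figure D4:**
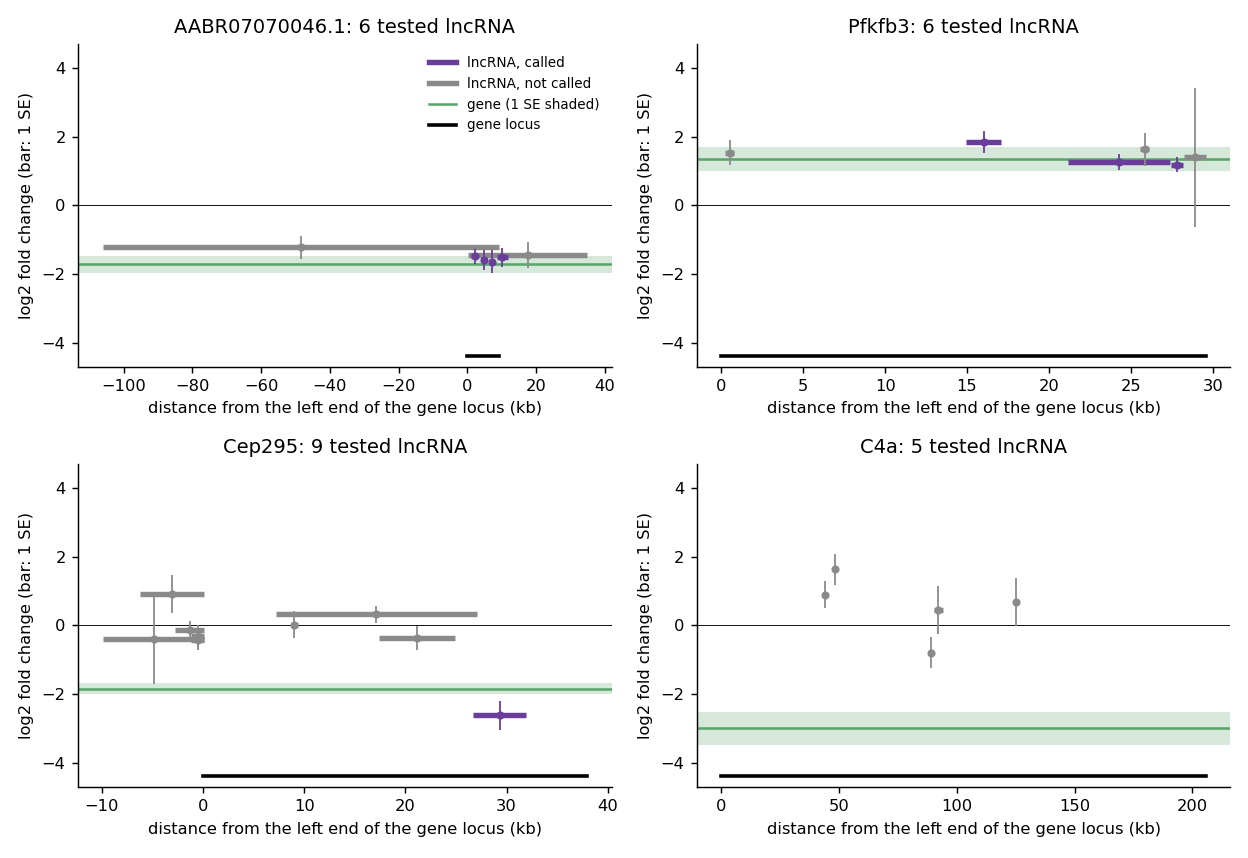
Log2 fold change (GK against control, bars 1 SE) of each tested lncRNA along 4 genes, by its distance in kilobases from the left end of the gene locus (black bar), with the gene's own fold change as a green line and its SE shaded. At Pfkfb3 and AABR07070046.1 the lncRNAs sit near the gene's value, and at Cep295 and C4a most sit above it.

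Named gene groups gave few calls among the members. For matrix genes, 15 members were tested with a median log2 fold change of -1.38, against -0.02 for all members tested, and 3 fell, where 0.792% of all members tested were lower. They were NONRATT029988.2 at Col5a2 (90.7 ± 10.6 to 35.7 ± 10.5 CPM), NONRATT017935.2 at Col5a1 (1796 ± 394 to 660.2 ± 242 CPM) and NONRATT029361.2 at Col3a1 (43.3 ± 10.5 to 12.7 ± 6.39 CPM), with edgeR adjusted p of 0.0294, 0.0428 and 0.0473. Their genes, chains of type V and type III collagen, fell too, Col5a1 with a log2 fold change of -1.32 (edgeR adjusted p = 0.0486) and Col3a1 with -2.33 (edgeR adjusted p = 0.0172). Of the 20 matrix genes tested, 11 fell and none rose, where 3.31% of all genes tested were lower. In the libraries, matrix genes summed to 18165 to 37630.0 CPM in controls and 5002 to 11856 CPM in GK.

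For contractile smooth muscle, all 11 members tested were below 0 with a median of -1.13, and none passed the test, while 3 of 12 genes fell, where 3.31% of all genes were lower. For glycolysis, 9 of 10 members were above 0 and 3 rose, where 0.822% of all members were higher. All 3 lie at the Pfkfb3 locus and were kept in 1 or 2 of 8 refits without a library. Of the 10 members tested, 6 lie at Pfkfb3, all 6 above 0, so the count of signs rests largely on 1 gene. Of 14 glycolysis genes 4 rose, where 3.96% of all genes were higher. For lipogenesis 4 of 5 members were below 0, and NONRATT006021.2 at Acly, the ATP citrate lyase that supplies acetyl-CoA, fell from 17.3 ± 6.98 to 5.37 ± 1.20 CPM (edgeR adjusted p = 0.048). This call was lost whichever library was left out (largest edgeR adjusted p = 0.159). Of the 13 lipogenesis genes tested 3 fell and 1 rose. Fatty acid oxidation (8 above and 3 below 0 of 11), vascular developmental transcription factors (1 and 12 of 13), imprinted genes (5 and 6 of 11), endothelial genes (5 and 0 of 5), fibroblast genes (0 and 3), macrophage genes (2 and 3), nerve genes (5 and 0) and adipocyte genes (3 and 0 general, 1 and 0 brown) had no called member, and no member at skeletal or cardiac muscle genes was tested. These lists follow the genes' names, and the change of a tissue's share of the RNA was not tested.

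Some members were far lower in a single library than in the others of the group, a pattern described after their values had been seen. With at least 50 CPM in the other 3 libraries of the group and under 10% of the lowest of them in the remaining one, there were 65 cases in 58 members, 6 to 10 per library, and none among the overlapped genes. The 4993 other lncRNAs tested gave 91, 9 to 15 per library. The base is the transcripts with at least 50 CPM in the other 3 libraries. Per library these were 863 to 962 members and 1456 to 1624 other lncRNAs, and the difference in share was not tested. The floor of 50 CPM stands for fewer counts in an lncRNA than in a gene, since the lncRNA totals per library are lower. In 65 of 67 cases with a tested gene, the gene in that library was at 50% or more of its lowest other library. At Fzd4, a Wnt receptor of the vessel wall, NONRATT000935.2 had 5.81 CPM in control 8 against 1749.8 to 2290.0 CPM in the other controls and 1912 to 2410.3 CPM in GK. Fzd4 itself had 552 CPM in control 8, within the 418 to 623 CPM of the other controls. At Tns1, NONRATT030152.2 had 39.9 CPM in GK 10 and the gene 1332 CPM there, above the 890.2 to 1185 CPM of the other GK libraries. At Ptprd, a receptor phosphatase, NONRATT023334.2 had 2.41 CPM in control 10 against 380.0 to 641 CPM in the other controls, and the gene 299 CPM, within their range. Of these 58 members 1 was among those changed, NONRATT005011.2 at Gna13.

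**Figure D5:**
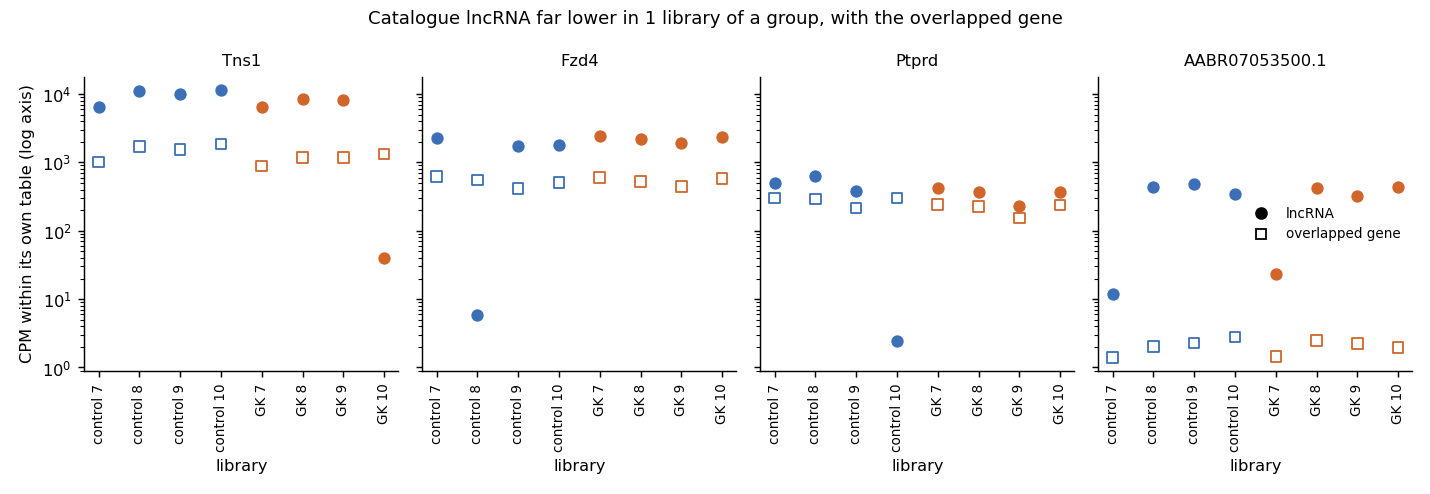
Level of 4 lncRNAs (CPM within the lncRNA table) and of the genes they overlap (CPM within the gene table) in each of the 8 libraries, on a log axis. Each lncRNA drops by over 10-fold in 1 library of a group (at AABR07053500.1 in control 7 and GK 7), while the gene in that library stays at 50% or more of its lowest other library.

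The authors' deposited table lists 273 of the members as differing between the groups, 150 higher and 123 lower in GK. Of these 273 of the authors' deposited table, 72 were among the 108 changed here (26.4% of the former and 66.7% of the latter), and 147 had too few counts to be tested here. In the authors' deposited table of lncRNA targets, 209 of the 302 pairs that these 273 form with an overlapped gene are listed as cis, 7 as trans only, and 86 are not listed.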

How the data were processed

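Total RNA sequencing of thoracic aorta in 4 control and 4 GK rats was analysed from the raw counts and FPKM values that the authors deposited per gene and per lncRNA transcript. Per the submitters' processing notes, Bowtie 0.12.2 and mouse genome builds are named; the counter and the rat build are not given in the sources used here. The authors' fold changes and q-values, deposited in the same tables, served only for their list of calls. Loci were taken from the tables as deposited, without strand. Members and lists were chosen with earlier results of these data known. Counts of the whole lncRNA table (11683 tested) and of the whole gene table (13673) were tested with edgeR 4.0.16 in R 4.3.3 (filterByExpr, TMM, quasi-likelihood, group only, Benjamini-Hochberg, adjusted p under 0.05, no minimum fold). The difference within a pair was tested with limma 3.58.1 on log2 CPM (prior count 2) of lncRNA minus gene. On simulated counts with 200 features changed 8-fold, 99% of the changed lncRNAs (12251 simulated) and 99.5% of the changed genes (14031) were recovered. For pair differences 99.6% of 259 changed were recovered (7224 simulated). False calls numbered 4 for lncRNAs, 8 for genes and 9 for pair differences. Only 8-fold changes of features with a mean count of at least 20 were simulated. Every feature had the same dispersion (variance beyond counting error), and lncRNA and gene were drawn independently. These shares therefore do not give the recovery of smaller changes, of low counts or at the spread of these libraries. FPKM values, deposited by the authors, served only to compare levels per length. Intervals and floors (3 counts) cover counting error only.

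Named by rule were, among members past the test with groups not overlapping and a mean count of at least 20 in the higher group, the 8 largest rises and 8 largest falls; the 8 pairs with both changed in the same direction and the 8 with the most significant difference, by adjusted p; the 5 most abundant members; and up to 2 changed members per gene list. Gna13, Alg8, Col3a1, Mrpl48, Scd1, Smoc1, the pairs with printed promoters, the pairs at the overlap limit the lncRNAs low in 1 library and the genes that complete a small count were chosen outside this rule after their values were seen. Alternatives were DESeq2 1.42.0, RLE factors, no filter on low counts, a replicate block, gene totals, a prior count of 0.5, overlap of at least 50% of the lncRNA locus, and leaving out each library. RefSeq strand was found for 78.6% of the genes in tested pairs (3555 of 4523), so no analysis by strand was made. Some results are not reported here.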

Additional observations from a re-analysis of the deposited data

Results flagged for a closer look

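In 98 groups of 4 libraries, those of the named lncRNAs and genes, 1 library was tested for standing apart from the other 3, by the gap to its neighbour as a share of the range (Dixon's 95% critical value). It did so in 7, and chance gives about 1 in 20. Control 9 was highest for the Fam73b lncRNA NONRATT018008.2 (4.31 CPM) and lowest for the Retsat lncRNA NONRATT020568.2 (33.4 CPM). Control 8 was highest for the Cep295 lncRNA NONRATT028278.2 (20.7 CPM) and the RT1-CE10 lncRNA NONRATT017002.2 (10.8 CPM), and lowest for the Cnbd2 lncRNA NONRATT018825.2 (1994 CPM). Among genes, control 7 was highest for AC115158.1 (55.9 CPM) and GK 10 lowest for Kcnh1 (5.06 CPM).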

How the results depend on the processing

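The 108 changed members became 369 with DESeq2, 110 with RLE factors, 37 with no filter on low counts, 69 with the replicate block, and 24 (without GK 7) to 221 (without GK 9) when single libraries were left out. Scaled by gene totals, 114 were called, of which 36.0% were higher against 50.9%, with the median of all lncRNAs at -0.13 on the log2 scale, and 101 of the 108 kept their sign; all 108 kept it under every other setting run. Without both libraries numbered 9, chosen after seeing the data, 179 were called, 75 of the 108 among them. The 517 changed overlapped genes became 1305 with DESeq2, 327 with no filter, 1299 with the replicate block, 1417 without both libraries numbered 9, and 71 (without control 10) to 1688 (without GK 9) without single libraries. Pairs changed in the same direction were 193 with DESeq2, 16 with no filter, 53 with the replicate block, 120 without both 9s and 5 to 144 without single libraries. Pairs in opposite directions were 7 with DESeq2, 1 without both 9s (Mrpl48) and 0 to 2 without single libraries. Pairs whose changes differed were 4 with the replicate block, 9 with at least 50% of the lncRNA locus required, 11 with a prior count of 0.5, 24 with gene totals, 12 without both 9s and 9 to 17 without single libraries. The correlation of changes ranged from 0.484 to 0.575 without single libraries. The cause of these shifts was not tested. The fold change of the Acer3 gene, 0.01, was -0.02 without control 8, -0.05 without control 10, -0.0093 without GK 7 and -0.058 without GK 10, and 0.11 without control 7.

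Same-numbered libraries deviated together with r = 0.093, 0.052, 0.273 and -0.034 in the lncRNA table for numbers 7 to 10. In the gene table r was 0.417, 0.068, 0.545 and 0.025. In both, numbers 7 and 9 gave higher values than 8 and 10. Libraries of unlike number ran from -0.192 (control 8 with GK 9) to 0.110 (control 8 with GK 10) for lncRNAs. For genes they ran from -0.393 (control 9 with GK 7) to 0.409 (control 8 with GK 10). Whether the numbers pair the libraries is not settled by these values. With the block, 44 of the 108 changed members were called. Counts limit the members, since 8783 of 15473 were too low to test.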
